A study of Mus musculus with 12 samples.

Results

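Creb3l3 and 9 genes of lipoprotein assembly and fatty acid handling (Apoc2, Apoc3, Apoa1, Apoa4, Apob, Mttp, Cd36, Fabp1 and Fabp2) are described here in the mouse colon, 10 genes of the 27179 in the deposited table. They were named together because Creb3l3 and its known target Apoc2 were higher after the removal of enteric neurons, so the set was chosen by the levels of these 2 genes in that comparison, which are given as a description, without a test. The other 8 genes were tested where their levels allowed it. RNA was measured by sequencing in 12 libraries of full-thickness colon. The 7 Cre-positive libraries came from BAF53b-Cre::R26-iDTR mice, in which a Cre under the promoter of the neuronal gene BAF53b (Actl6b) switches on the diphtheria toxin receptor. The 5 Cre-negative libraries came from R26-iDTR littermates without Cre. Both groups had a laparotomy and an injection of diphtheria toxin with India ink into the muscle wall of the colon, and the inked site was collected, so surgery, toxin and ink are shared. The labels used here give no age, sex or time after the injection for the libraries. They do not say that each library is a separate animal, so the p-values cover the variation among libraries, which may be partly technical.

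Creb3l3 encodes CREBH, a transcription factor anchored in the membrane of the endoplasmic reticulum, which moves to the Golgi when it is activated and is cut there by the proteases of sites 1 and 2. It is made mainly in liver and intestine, and in mouse liver it is known to switch on genes of lipid metabolism, among them Apoc2, the activator of lipoprotein lipase. In the small intestine, enterocytes take up fatty acids, bind them with small cytosolic proteins, rebuild triglyceride, and load it with Mttp onto apolipoprotein B to form chylomicrons. The colon carries out little of this fat export.

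Depth was 13.4 to 26.9 M recovered reads in the Cre-positive libraries and 15.2 to 22.5 M in the Cre-negative libraries. Values are TPM, each gene's share of its library after division by gene length, and 1 read per kilobase of transcript was worth 0.0697 to 0.129 TPM. The neuronal gene Uchl1 lay between 4.71 and 12.4 TPM in Cre-positive libraries and between 20.3 and 59.3 TPM in Cre-negative libraries, with no overlap. Actl6b itself was low, at 0.155 to 0.750 TPM in Cre-positive and 0.599 to 1.43 TPM in Cre-negative libraries. Cre-positive library 1 stood apart, with 25.6% of its TPM from mitochondrial genes, against 5.20% to 14.2% in the other Cre-positive libraries and 7.44% to 13.3% in the Cre-negative libraries. The posterior gene Hoxb13 was at 337 to 587 TPM in Cre-positive and 428 to 581 TPM in Cre-negative libraries. Of 10 small intestinal markers, Lct, Sis, Gata4 and Rbp2 stayed at or below 0.343 TPM in every library. The highest was Slc5a1, at 31.0 to 102 TPM in Cre-positive and 58.0 to 74.2 TPM in Cre-negative libraries. Alpi of the same list was higher in Cre-positive libraries (log2 difference 1.12, limma adjusted p 0.0316) and is described at the end. The 10 markers summed to a mean of 79.2 TPM in Cre-positive and 80.2 TPM in Cre-negative libraries. Of 10 hepatocyte markers, Alb was at 1.46 to 5.18 TPM in Cre-positive and 1.25 to 3.63 TPM in Cre-negative libraries, and the highest was Ttr, at 50.6 to 129.9 TPM in Cre-positive and 73.5 to 123 TPM in Cre-negative libraries.

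The sequences just upstream of the annotated starts of Creb3l3 and Apoc2 are shown because these are the 2 genes the set was built around. They are RefSeq sequence of build GRCm38.p6, on the strand of each gene and ending at the base before its start. The Creb3l3 sequence covers chr10:81098873-81099122 on the minus strand. The Apoc2 sequence covers chr7:19677942-19678082 on the minus strand, which is the whole gap between Apoc2 and its neighbour Apoc4. Capitals mark the half-site of the cyclic AMP response element, TGACG or CGTCA, the only motif marked.
Creb3l3: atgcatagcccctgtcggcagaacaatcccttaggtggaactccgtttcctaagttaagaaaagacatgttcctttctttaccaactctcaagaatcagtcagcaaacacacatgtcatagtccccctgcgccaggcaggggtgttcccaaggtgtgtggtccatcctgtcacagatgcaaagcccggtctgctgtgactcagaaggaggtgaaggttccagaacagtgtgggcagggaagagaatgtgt
Apoc2: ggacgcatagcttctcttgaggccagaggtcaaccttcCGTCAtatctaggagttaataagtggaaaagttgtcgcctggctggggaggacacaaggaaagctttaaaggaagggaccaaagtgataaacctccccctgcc
The Apoc2 sequence holds CGTCA at 103 to 99 bases before the start. The Creb3l3 sequence holds no such half-site, while the 250 bases before a second annotated Creb3l3 start hold TGACG at 239 to 235 bases. Among 32851 RefSeq promoter windows of 250 bases, 17.77% hold the half-site on either strand. The 9 genes of the set with a window have 10 such windows, of which 3 hold it (Apoc2, Mttp and the second start of Creb3l3). A match of letters is a description and not a binding site.

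Creb3l3 (gene ID 208677, chr10:81084324-81098874, minus strand, mm10) was at 22.4, 11.2, 8.54, 16.1, 7.10, 12.5 and 20.7 TPM in Cre-positive libraries 1 to 7, and at 1.67, 3.14, 4.21, 4.498 and 3.33 TPM in Cre-negative libraries 1 to 5. Every Cre-positive library lay above every Cre-negative library, and the lowest Cre-positive value was 1.58 times the highest Cre-negative value. The means were 14.1 ± 5.88 TPM in Cre-positive (SD, n = 7) and 3.37 ± 1.11 TPM in Cre-negative libraries (SD, n = 5), a ratio of 4.18. On the log2(TPM + 0.5) scale the difference was 1.86 (SE 0.30). These values rest on 2646 reads in the Cre-positive and 476 reads in the Cre-negative libraries. In bulk tissue, more cells that make an RNA and more of that RNA in each cell cannot be told apart.

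Apoc2 (gene ID 11813, chr7:19671579-19677941, minus strand) was at 19.2, 94.3, 27.0, 55.1, 92.2, 24.2 and 72.8 TPM in Cre-positive libraries 1 to 7, and at 4.59, 8.16, 12.7, 14.3 and 11.5 TPM in Cre-negative libraries 1 to 5. The groups again did not overlap, with the lowest Cre-positive value 1.35 times the highest Cre-negative value. Cre-positive libraries spread widely, with 1, 3 and 6 low and 2, 5 and 7 high. The means were 55.0 ± 32.3 TPM in Cre-positive (SD, n = 7) and 10.2 ± 3.87 TPM in Cre-negative libraries (SD, n = 5), a ratio of 5.37 and a log2 difference of 2.21 (SE 0.43). Without Cre-positive library 1, the log2 difference was 2.42 for Apoc2 and 1.74 for Creb3l3. The reads behind Apoc2 numbered 2995 in Cre-positive and 400 in Cre-negative libraries. A read-through transcript that joins Apoc4 to Apoc2 is annotated, so how reads were assigned at this site could affect the Apoc2 value. Apoc4 itself was near 0, with 11 reads in Cre-positive and 6 in Cre-negative libraries.

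**Figure D1:**
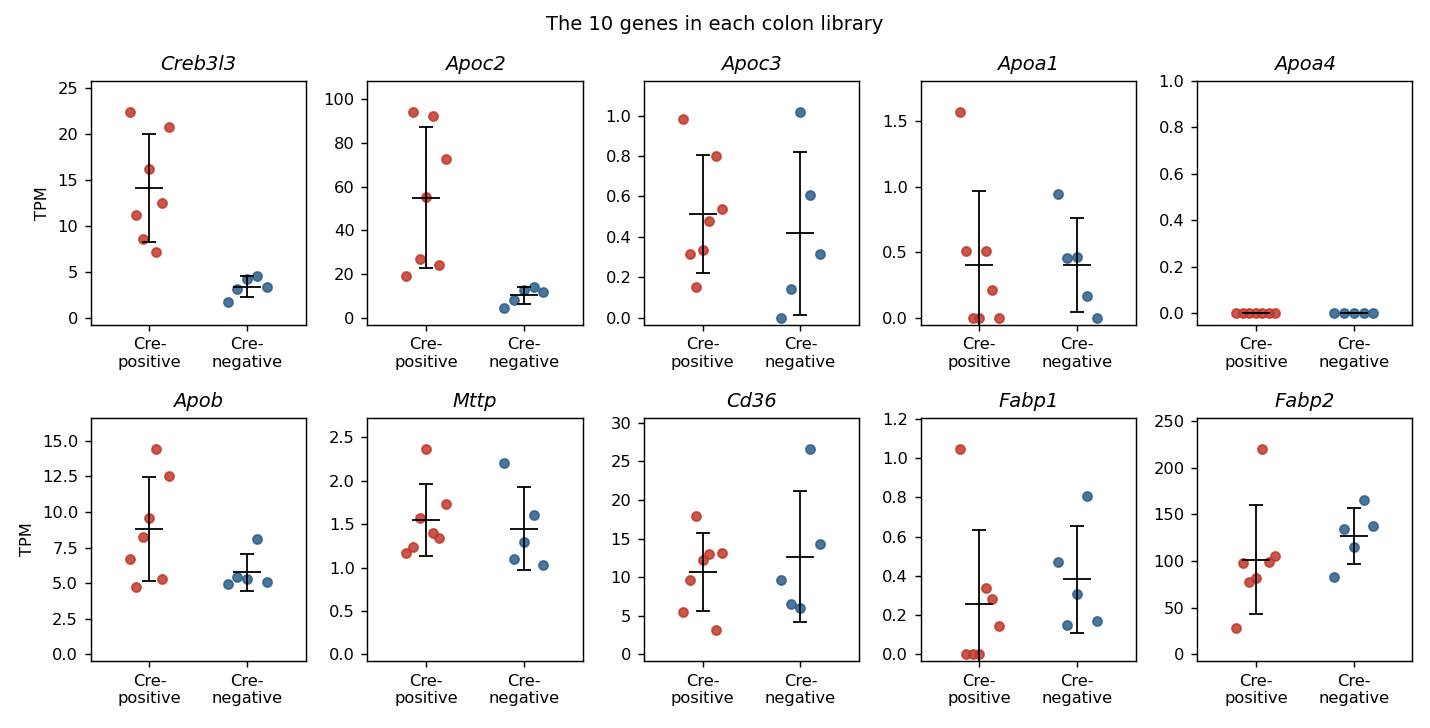
TPM of each of the 10 genes by library (points, linear axes that differ between panels), Cre-positive left and Cre-negative right, with the group mean and SD. The groups are apart for Creb3l3 and Apoc2, they overlap for the other genes above 0, and Apoa4 is listed at 0 in all 12 libraries.

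Creb3l3 and Apoc2 were both higher in Cre-positive libraries but did not run in parallel among them. Cre-positive library 1 had the highest Creb3l3 and the lowest Apoc2 of its group, and library 5 had the lowest Creb3l3 and the second highest Apoc2. The ratio of Apoc2 to Creb3l3 TPM was 0.859, 8.45, 3.16, 3.42, 13.0, 1.94 and 3.51 in Cre-positive libraries 1 to 7, against 2.74, 2.60, 3.02, 3.17 and 3.46 in Cre-negative libraries 1 to 5. The ratio thus lay in a narrow band in Cre-negative libraries (2.997 ± 0.342, SD, n = 5) and on both sides of that band in Cre-positive libraries (4.90 ± 4.29, SD, n = 7). Within the 7 Cre-positive libraries, Pearson's r of the log2 values was -0.29 (exact permutation p = 0.511) and Spearman's rho was -0.50 (exact permutation p = 0.267). Without libraries 1 and 5, the 2 farthest from the median of Creb3l3, r was 0.48, so the sign rests on those libraries. The 5 Cre-negative libraries are too few for a correlation, and the 2 genes had the same rank order in them.

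**Figure D2:**
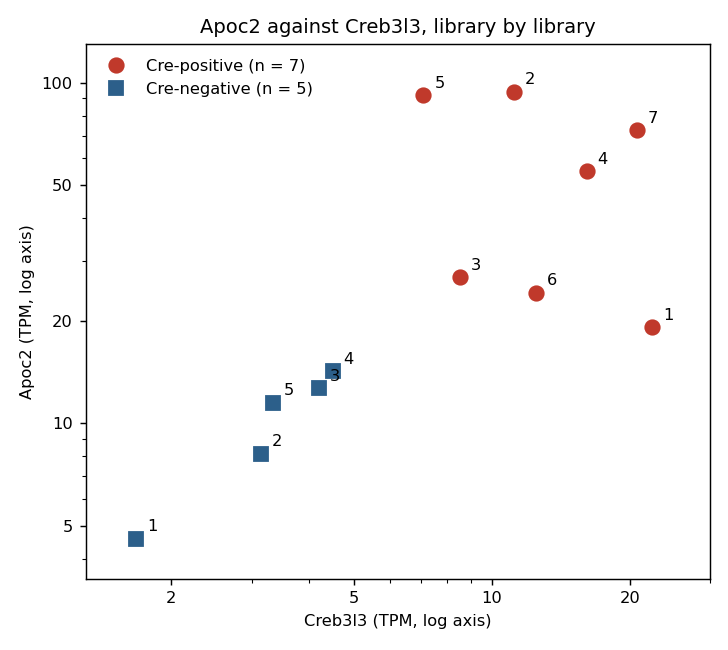
Apoc2 against Creb3l3 in TPM on log axes, each point a library marked with its number, Cre-positive and Cre-negative in separate colours. Cre-negative libraries lie close together at low values, and Cre-positive library 1 (22.4 TPM Creb3l3, 19.2 TPM Apoc2) and library 5 (7.10 and 92.2 TPM) lie at opposite corners of the Cre-positive points.

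Creb3l3 is known from the epithelium of the intestine, and the sampled pieces held different amounts of epithelial RNA. The summed TPM of 12 colonic epithelial markers was 11956 to 22907 in Cre-positive libraries (18889 ± 3887, SD, n = 7) and 13454 to 17673 in Cre-negative libraries (15507 ± 1773, SD, n = 5). None of the 12 markers passed the test. Set against that sum, Creb3l3 was 0.810 ± 0.511 TPM per 1000 epithelial TPM in Cre-positive libraries and 0.215 ± 0.0633 in Cre-negative libraries, a ratio of 3.77. Apoc2 was 2.78 ± 1.41 in Cre-positive and 0.650 ± 0.215 in Cre-negative libraries on the same scale, a ratio of 4.28. Neither gene's groups overlapped after this scaling, which is a description, as both genes were chosen because they were higher. With an epithelial score as a covariate the log2 difference was 1.89 for Creb3l3 and 1.77 for Apoc2. With the same covariate it was 0.24 for Apob (limma adjusted p 0.438), 0.01 for Mttp (0.982), -0.64 for Cd36 (0.209) and -0.84 for Fabp2 (0.0899), none of which passed. Apoc2 is also made by macrophages, whose 8 summed markers were at 116 to 359 TPM in Cre-positive and 160 to 261 TPM in Cre-negative libraries, and their part in the Apoc2 values was not tested.

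**Figure D3:**
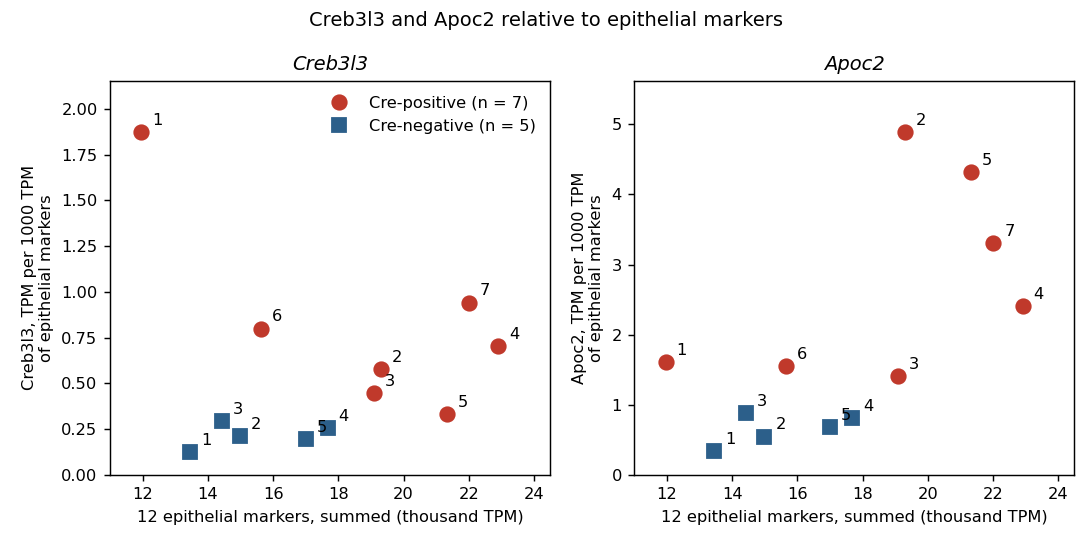
Creb3l3 and Apoc2 TPM per 1000 TPM of the 12 summed epithelial markers (vertical axes) against that sum (horizontal axis, in units of 1000 TPM), each point a numbered library of the Cre-positive or Cre-negative group. The Creb3l3 ratio runs from 0.333 to 1.87 in Cre-positive and from 0.124 to 0.292 in Cre-negative libraries, while the marker sums overlap.

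None of the other 8 genes passed the test. Of these, 5 reached the minimum of 0.5 TPM in 5 libraries and were tested, and 0 of 5 had an adjusted p under 0.05 (limma, Benjamini-Hochberg over all genes) or an unadjusted p under 0.05. Of all 16164 tested genes 1.43% passed, 0.421% higher and 1.01% lower in Cre-positive libraries. An unadjusted limma p under 0.05 was found for 11.8% of them. With 5 genes, a count of 0 is near both shares. The groups did not overlap for 2.88% of tested genes, 1.33% higher and 1.55% lower in Cre-positive libraries, and for none of these 5.

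Among the apolipoproteins, Apob, the structural protein of chylomicrons and very low density lipoprotein, was at 6.71, 4.72, 8.26, 9.58, 14.4, 5.29 and 12.5 TPM in Cre-positive libraries 1 to 7, and at 4.92, 5.41, 5.26, 8.06 and 5.06 TPM in Cre-negative libraries 1 to 5. The groups overlapped, with Cre-positive libraries 5 and 7 highest. The log2 difference was 0.50 (95% interval -0.06 to 1.05), with a limma adjusted p of 0.490. Apob was well covered, by 10433 reads in Cre-positive and 4822 in Cre-negative libraries. Mttp, the protein that loads lipid onto Apob, was at 1.17, 1.24, 1.58, 2.37, 1.39, 1.34 and 1.74 TPM in Cre-positive libraries and at 2.21, 1.10, 1.296, 1.61 and 1.03 TPM in Cre-negative libraries. Its groups overlapped throughout, and the log2 difference was 0.08 (95% interval -0.32 to 0.48, limma adjusted p 0.942).

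The Apoa1-Apoc3-Apoa4-Apoa5 cluster of chromosome 9 was at or near 0. Apoc3, an inhibitor of lipoprotein lipase, averaged 0.514 ± 0.291 TPM in Cre-positive (SD, n = 7) and 0.417 ± 0.405 TPM in Cre-negative libraries (SD, n = 5), on 22 and 14 reads, with a limma adjusted p of 0.880. Apoa1, the main protein of high density lipoprotein, had 27 reads in Cre-positive and 22 in Cre-negative libraries and stayed under the minimum for testing. Apoa4, a chylomicron protein and a known CREBH target in mouse, was at 0 in all 12 libraries. A count of 0 allows up to 3 reads per library, or 0.115 to 0.213 TPM, counting error only. Apoa5 had 2 reads in Cre-positive and 4 in Cre-negative libraries. In the cluster that holds Apoc2, Apoe averaged 395 TPM in Cre-positive and 469 TPM in Cre-negative libraries (limma adjusted p 0.697), and Apoc1 4.78 and 4.39 TPM in the same order (limma adjusted p 0.942). The neighbour on the other side of Apoc2, Clptm1, averaged 67.4 TPM in Cre-positive and 68.7 TPM in Cre-negative libraries (limma adjusted p 0.961). Beside Creb3l3, Thop1 averaged 28.3 TPM in Cre-positive and 21.1 TPM in Cre-negative libraries (limma adjusted p 0.258), and Map2k2 98.4 and 85.8 TPM in the same order (limma adjusted p 0.461).

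Among the genes of fatty acid uptake and binding, Fabp2, the intestinal fatty acid binding protein, was the most abundant of the set. It was at 28.4, 97.4, 77.0, 81.6, 220.6, 98.7 and 105.9 TPM in Cre-positive libraries 1 to 7, and at 83.2, 134.7, 115.6, 165.0 and 137.2 TPM in Cre-negative libraries 1 to 5. Cre-positive libraries 1 and 5 were the lowest and the highest of all 12, and the log2 difference was -0.50 (95% interval -1.29 to 0.30, limma adjusted p 0.685). Without Cre-positive library 1 that difference was -0.23, and without Cre-positive library 5 it was -0.72. Cd36, a membrane protein that takes up long-chain fatty acids, was at 5.45, 9.57, 18.0, 12.3, 13.0, 3.09 and 13.1 TPM in Cre-positive libraries, and at 9.68, 6.58, 5.98, 26.7 and 14.3 TPM in Cre-negative libraries. Its groups overlapped and its log2 difference was -0.20 (95% interval -1.13 to 0.74, limma adjusted p 0.942). The sign of the Cd36 difference turned without Cre-negative library 4 (0.12) or Cre-positive library 6 (0.05). Cd36 is also made by adipocytes, endothelium and macrophages. The summed adipocyte markers were 90.4 to 180.1 TPM in Cre-positive and 63.6 to 258 TPM in Cre-negative libraries, and their part in the Cd36 values was not tested. Fabp1, the liver fatty acid binding protein, was nearly absent, with 9 reads in Cre-positive and 11 in Cre-negative libraries.

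By mean TPM, which is scaled by length, the order in Cre-positive libraries was Fabp2 (101.4), Apoc2 (55.0), Creb3l3 (14.1), Cd36 (10.6), Apob (8.79), Mttp (1.55), Apoc3 (0.514), Apoa1 (0.399), Fabp1 (0.259) and Apoa4 (0). In Cre-negative libraries it was Fabp2 (127), Cd36 (12.6), Apoc2 (10.2), Apob (5.74), Creb3l3 (3.37), Mttp (1.45), Apoc3 (0.417), Apoa1 (0.404), Fabp1 (0.382) and Apoa4 (0). Creb3l3, Cd36 and Apob overlapped in TPM among Cre-positive libraries, while among Cre-negative libraries every Creb3l3 value lay below every Apob and Cd36 value. Cd36, Apoc2 and Apob overlapped among Cre-negative libraries, as did Apoc3, Apoa1 and Fabp1 in both groups. Within the 7 Cre-positive libraries, the relation of Creb3l3 to each of the 8 genes above 0 was examined. None of the 8 passed, with exact permutation p-values adjusted over the 8 of 0.732 to 0.805. The lowest p was that of Fabp2, with r = -0.68 (exact permutation p = 0.0915), which became 0.56 without libraries 1 and 5.

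The genes whose pattern was most like that of Creb3l3 over the 12 libraries, by Pearson's r of log2 values among 13586 genes, were Cilk1 (r = 0.96), Capn9 (0.94), Anxa8 (0.94), Srgap1 (0.94), Spink1 (0.94), Fer1l4 (0.94), Sytl2 (0.93) and Myo18a (0.93). Apoc2 came at rank 345 in that order, with r = 0.73. Such a ranking over both groups favours genes that differ between them, and no p is given. For Apoc2 the 8 nearest were Zbtb7c (0.93), Mt4 (0.92), Hsd17b13 (0.91), Tff3 (0.90), Atp8a1 (0.90), Mgst3 (0.89), Med23 (0.89) and Cmbl (0.89). Hsd17b13, a protein of lipid droplets, averaged 15.3 ± 13.5 TPM in Cre-positive and 1.23 ± 0.429 TPM in Cre-negative libraries. Over the 7 Cre-positive libraries alone, the 8 genes nearest to Creb3l3 were Syt7 (0.97), Baz1a (0.95), Alb (0.94), Ippk (0.94), H3c1 (0.93), Tapt1 (0.93), Phf23 (0.93) and Fam199x (0.92), and Apoc2 stood at rank 8355. With 7 libraries and 13586 genes, the highest r values can be this high by chance, so this order is a description without a p.

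The wider pathway was followed in 9 lists with 122 distinct genes, of which 109 were tested. None passed as higher and 1 passed as lower, which is 0.917% of those tested. Of all genes tested, 0.421% passed as higher and 1.01% as lower in Cre-positive libraries, so these counts are near those shares. The median log2 difference of the 109 was 0.08, beside 0.03 for all genes tested. The gene that passed was Ppard, a nuclear receptor for fatty acids. It was at 53.9, 41.0, 46.5, 52.0, 48.8, 44.3 and 60.2 TPM in Cre-positive libraries, and at 65.0, 73.0, 64.9, 88.7 and 90.3 TPM in Cre-negative libraries. The groups did not overlap, as for 1.55% of all genes tested in that direction. The log2 difference was -0.61 (SE 0.12, limma adjusted p 0.0237, range 0.00552 to 0.133 over 25 alternatives). The call was lost without Cre-negative library 2, 4 or 5 or Cre-positive library 6, where the limma adjusted p was 0.0523 to 0.0809.

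None of the 8 relatives of Creb3l3 and their Golgi proteases passed. Creb3l4, the relative with the lowest p, averaged 38.1 TPM in Cre-positive and 31.9 TPM in Cre-negative libraries (limma adjusted p 0.547), and Atf6b followed at 32.2 and 30.04 TPM in the same order (limma adjusted p 0.841). Of 13 other genes reported as CREBH targets, 7 were tested and none passed. Elovl5, which lengthens polyunsaturated fatty acids, averaged 27.8 TPM in Cre-positive and 36.1 TPM in Cre-negative libraries (limma adjusted p 0.283). Fads1, a fatty acid desaturase, averaged 14.6 TPM in Cre-positive and 18.7 TPM in Cre-negative libraries (limma adjusted p 0.344). Of 9 other apolipoproteins, 6 were tested and none passed. Apod averaged 1.45 ± 0.958 TPM in Cre-positive and 2.1701 ± 0.570 TPM in Cre-negative libraries (limma adjusted p 0.547), and Apoa2 4.51 and 5.82 TPM in the same order (limma adjusted p 0.599).

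In triglyceride synthesis and chylomicron assembly, none of 18 genes passed. Dgat2, which makes triglyceride, averaged 40.2 ± 10.9 TPM in Cre-positive and 25.6 ± 5.06 TPM in Cre-negative libraries, a log2 difference of 0.62 (limma adjusted p 0.177). Pla2g12b, needed for lipoprotein secretion in mouse liver, averaged 3.84 TPM in Cre-positive and 2.19 TPM in Cre-negative libraries (log2 difference 0.67, limma adjusted p 0.183). In lipid uptake and efflux, 0 of 15 passed. The lipoprotein receptor Lrp1 averaged 24.8 TPM in Cre-positive and 17.9 TPM in Cre-negative libraries (limma adjusted p 0.183), and Vldlr 5.94 and 4.37 TPM in the same order (limma adjusted p 0.226). In the lipoprotein lipase system, on which Apoc2 acts, 0 of 12 tested genes passed. Angptl8, an inhibitor of the lipase, averaged 3.25 TPM in Cre-positive and 2.63 TPM in Cre-negative libraries (limma adjusted p 0.638), and Mgll, which splits monoglyceride, 24.1 and 19.4 TPM in the same order (limma adjusted p 0.693).

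In fatty acid oxidation and ketogenesis, 0 of 17 tested genes passed. Slc25a20, the mitochondrial carnitine carrier, was at 211 to 338 TPM in Cre-positive and 149 to 204 TPM in Cre-negative libraries. Its groups did not overlap, as for 1.33% of all genes tested in that direction, and its limma adjusted p was 0.184. Among other lipid binding proteins, 0 of 9 tested passed. Fabp7, a fatty acid binding protein known from glia, averaged 0.340 TPM in Cre-positive and 1.17 TPM in Cre-negative libraries, a log2 difference of -1.02 (limma adjusted p 0.0536). The Fabp7 difference was negative in all 24 alternatives (-1.92 to -0.70) and passed in 8 of them. Its limma adjusted p over all 24 ran from 0.00927 to 0.357, and voom on recovered reads gave -1.92 (limma adjusted p 0.0411). Rbp4, which carries retinol, averaged 13.8 TPM in Cre-positive and 12.4 TPM in Cre-negative libraries (limma adjusted p 0.781). Of 18 tested transcription factors of enterocyte lipid genes, Ppard was the one that passed.

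**Figure D4:**
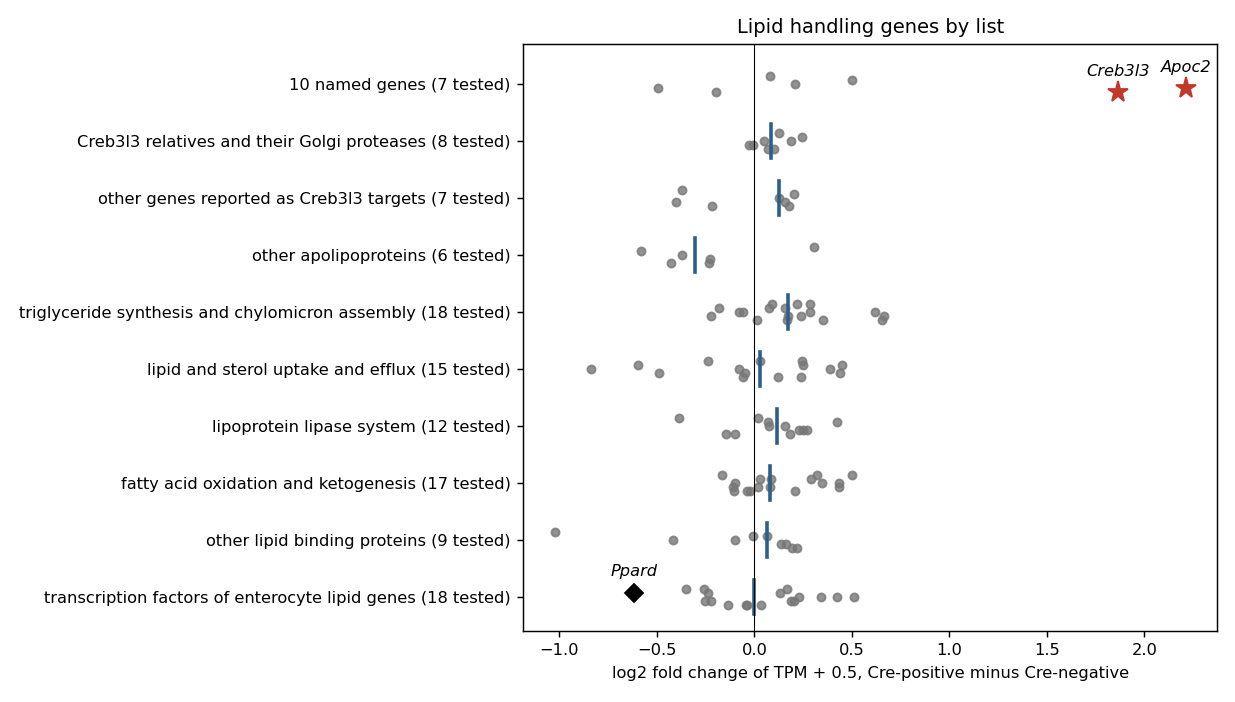
Log2 difference of TPM + 0.5, Cre-positive minus Cre-negative, of each tested gene (points) in the described set and the 9 pathway lists, with the median of each pathway list as a line. Stars mark Creb3l3 and Apoc2 and a diamond marks Ppard. Creb3l3 and Apoc2 lie at 1.86 and 2.21, and Ppard at -0.61 is the gene of the lists that passed the test.

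In the authors' deposited table, the log2 fold change was 2.04 for Creb3l3 and 2.38 for Apoc2. In the same authors' deposited table, Apob was at 0.58 (false discovery rate 0.465), Fabp2 at -0.36 (0.826), Cd36 at -0.29 (0.969) and Mttp at 0.07 (1).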

How the data were processed

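Polyadenylated RNA was made into strand-specific libraries, per the labels' protocols. Reads were handled with bcl2fastq 2.17, HISAT and featureCounts on mm10, per the submitters' processing notes. The deposited values are TPM per gene, identical in the 12 per-sample files and the series table. The authors' deposited edgeR table gives log2 fold change and mean log2 CPM, an F score and p-values with a false discovery rate, and is used for comparison alone.

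Whole reads were recovered from the TPM by a search for each gene's length, for 22841 of 22842 genes above 0. The search chose lengths that made the values whole to a tolerance of 0.05 read. That 100.0% of values were whole thus largely follows from the search and is not a check of it. The two-sided limma test (version 3.58.1, R 4.3.3, with a trend) used log2 values after adding 0.5 to the TPM. It covered the 16164 genes that reached 0.5 TPM in 5 or more libraries, with Benjamini-Hochberg adjustment and a threshold of 0.05. The added constant understates changes of low genes. Intervals are 95%. The fit was tested on simulated data. Correlations used Python 3.11.15 and SciPy 1.17.1, and coordinates GENCODE M21. Named genes are the 10 of the set, called genes of each list or the 2 with the lowest p where none was called, neighbours, cluster genes, markers, and the 8 most alike by r (mean of at least 1 TPM). Uchl1 and Actl6b were added, after their values were seen, as a check of the labels. A gene that this rule names is not reported here. The members and lists were chosen with earlier results of these data known. Alternatives were other constants, filters, scalings, weights, covariates, voom on recovered reads, a replicate block and leaving out each library. No sequence of the proteins was used here.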

Additional observations from a re-analysis of the deposited data

Results flagged for a closer look

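In 18 groups of values (9 genes above 0, in both groups of libraries), 4 held 1 library far from the others by Dixon's criterion. Chance meets it in about 5% of groups of normally distributed values. The values here were TPM without a log, for which that share need not hold. Apoa1 was at 1.57 TPM in Cre-positive library 1, with the other Cre-positive libraries between 0 and 0.506 TPM. Fabp1 was at 1.05 TPM in the same library, with the others between 0 and 0.338 TPM. Fabp2 was at 220.6 TPM in Cre-positive library 5, with the others between 28.4 and 105.9 TPM. Apob was at 8.06 TPM in Cre-negative library 4, with the other Cre-negative libraries between 4.92 and 5.41 TPM. Apoa1 and Fabp1 rest on few reads, and Cre-positive library 1 is also the one with 25.6% mitochondrial TPM. The part of that share in these values was not tested.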

How the results depend on the processing

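Over 25 alternatives the log2 difference ran from 1.67 to 2.004 for Creb3l3 and from 1.77 to 2.46 for Apoc2, whose values chose the set, so this is a description. Apoc3 (in 24 alternatives), Apob, Mttp, Cd36 and Fabp2 passed in none. The lowest limma adjusted p of Apob was 0.0543, with a weight per library (log2 difference 0.74). For Fabp2 it was 0.0899, with the epithelial covariate (-0.84). The lowest limma adjusted p was 0.209 for Cd36, 0.430 for Mttp and 0.568 for Apoc3. Passing genes over the table numbered 231 (68 higher, 163 lower), against 1092 (654, 438) with a weight per library, 1328 (632, 696) with an epithelial covariate, 693 (334, 359) with a mitochondrial covariate, and 349 (273 lower) without the filter. Voom on recovered reads gave 48 higher and 216 lower. Leaving out 1 library gave 128 to 328 (23 to 126 higher, 105 to 202 lower), with 128 without Cre-negative library 2 and 137 without library 3. The cause was not tested. Pathway genes higher numbered 0, against 8 with weights, 2 with the epithelial and 4 with the mitochondrial covariate, and 0 to 1 leaving out a library. Dgat2, Pla2g12b, Lrp1 and Acadl passed with weights and with the mitochondrial covariate. Acadl, of the fatty acid oxidation list, also passed without Cre-positive library 1 (limma adjusted p 0.0404). Those lower numbered 1, against 4 with weights, 8 with the epithelial covariate, 2 each with median-of-ratios scaling, the mitochondrial covariate, no filter, no trend and voom, and 0 to 2 leaving out a library.

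The replicate block (libraries 1 to 5) gave 89 passing genes (15 higher, 74 lower) and 0 lower pathway genes, with an adjusted p of 0.133 for Ppard. Same-numbered libraries deviated together (r over 0.1) in 3 of 5 pairs. These values cannot decide whether the numbers mark a shared litter or day, which the labels do not say.

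Reversed signs were small for Mttp (-0.0028 without Cre-positive 4) and Cd36 (0.0517 with weights, 0.0054 with the block, 0.1193 without Cre-negative 4, 0.0478 without Cre-positive 6). Correlations with Creb3l3 reversed without Cre-positive 1 for Apoc2 (0.0451), Apoa1 (-0.5697), Apob (0.0064) and Fabp1 (-0.2176), without Cre-positive 4 for Mttp (-0.0565), without Cre-positive 5 for Apob (0.4133), under quantile normalization for Apob (0.0003), and without the 2 farthest libraries for Apoc2 (0.4754), Apoa1 (-0.3202), Apob (0.6103) and Fabp2 (0.5584). Leaving out 1 library, the log2 difference ran from -0.0028 to 0.209 for Mttp and -0.3976 to 0.1193 for Cd36, and r from -0.5179 to 0.0451 for Apoc2, -0.5697 to 0.4237 for Apoa1, -0.4131 to 0.4133 for Apob, -0.0565 to 0.5393 for Mttp and -0.2176 to 0.6367 for Fabp1. Relations past the threshold numbered 0 throughout. Depth limits Apoc3, Apoa1, Apoa4 and Fabp1.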

Other observations

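Alpi, an intestinal alkaline phosphatase counted here among small intestinal markers, was the 1 of 4 tested genes of that list that rose. It was at 1.93, 1.53, 0.684, 2.01, 2.88, 1.67 and 1.99 TPM in Cre-positive libraries, and at 0.545, 0.511, 0.228, 0.681 and 0.742 TPM in Cre-negative libraries. The groups overlapped in Cre-positive library 3, and the log2 difference was 1.12 (SE 0.23, limma adjusted p 0.0316). The limma adjusted p ran from 0.00404 to 0.109 over the alternatives. The call was lost in 11 of 25 alternatives: without any 1 of the 5 Cre-negative libraries, without Cre-positive library 2, 4, 6 or 7, with the replicate block and with voom. The summed markers of small intestine were 79.2 ± 28.1 TPM in Cre-positive and 80.2 ± 9.35 TPM in Cre-negative libraries. The other lists had 0 called markers, with macrophage sums of 199.4 and 198.6 TPM, endothelial sums of 61.5 and 57.7 TPM, and hepatocyte sums of 153 and 151 TPM, Cre-positive and Cre-negative in that order.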
